A study of Mus musculus with 11 samples.

Results

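The NF-kB inflammatory genes are 32 transcripts that the transcription factor NF-kB is known to induce, or that encode parts of its own circuit. They were taken by symbol from a fixed list of 6 cytokines, 8 chemokines, 4 adhesion molecules, 2 inducible enzymes, 3 NF-kB subunits, 6 genes grouped as feedback inhibitors and 3 other targets. Of the 32, 31 had a probe on the array and 26 were measured, among 15469 genes measured in all. A gene counted as measured when its detection p-value, which sets the probe against negative control beads, was under 0.05 on at least 2 arrays, and the brightest such probe stood for it.

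NF-kB is a dimer of Rel-family proteins that inhibitors of the I-kappa-B family hold in the cytoplasm. Tumour necrosis factor, interleukin-1 or bacterial products set off degradation of the inhibitor, and the freed dimer enters the nucleus and switches on cytokines, chemokines, adhesion molecules and also the inhibitors that end the response. In liver the circuit runs in hepatocytes, in endothelial and stellate cells and, strongly, in Kupffer cells, the resident macrophages. FXR, the bile acid receptor encoded by Nr1h4, is known to repress NF-kB target genes in liver when it carries its agonist.

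The study compared forms of FXR that differ at one lysine, delivered by adenovirus to male C57BL/6J mice. FXR-K217Q has glutamine in place of the lysine, which resembles its acetylated form, and FXR-K217R has arginine, which cannot be acetylated. Lean mice received FXR-WT (2 arrays) or FXR-K217Q (3 arrays), and obese mice received FXR-WT (3 arrays) or FXR-K217R (3 arrays). The sample titles also mark every obese array HFD and every lean one ND, abbreviations of diets by common usage that the labels do not spell out, so diet and body state cannot be told apart. Liver RNA was hybridised to Illumina BeadChips a week after the virus, and every mouse had been treated overnight with 30 mg/kg of GW4064, which is a synthetic agonist of FXR. The labels give an age of 8 weeks for every array, obese mice included. They name no deletion of the mouse's own Nr1h4, so no group is known to depend on the delivered receptor alone, and no group without virus or without GW4064 was analysed here. The labels do not say whether arrays of a group came from separate animals, so all p-values measure the spread between these samples only. Values are normalized log2 intensities, a change is one group's mean minus another's on that scale, and all tests are from one limma fit to the 11 arrays with Benjamini-Hochberg adjustment over the 15469 genes at a 5% false discovery rate (FDR).

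Promoters are shown for 4 of the 12 genes found with a match to the kappa B element, the DNA site that NF-kB dimers bind. RefSeq promoter windows (GRCm38.p6, 250 bases before to 50 after the start) were matched by symbol for 23 of the 32 genes. The kappa B consensus, a motif of 10 letters, was searched on both strands, and overlapping matches were counted once per gene. A gene with several windows counted when any of them matched. The Irf1 window shown matched, while another Irf1 window (chr11:53770223-53770522) held 0 matches. It occurred in the windows of 12 of these 23 genes (52.2%), against 9.55% of 27025 gene symbols with a window. Since the genes were listed as known NF-kB genes, this share is a description of the list. The stretches below hold the 200 bases before the start, written 5′ to 3′ on the gene's strand, with the match in capitals; they belong to the chemokines Cxcl1 (chr5:90891045-90891244, plus strand) and Cxcl2 (chr5:90903699-90903898, plus strand), the transcription factor gene Irf1 (chr11:53769814-53770013, plus strand) and the inhibitor gene Nfkbia (chr12:55492648-55492847, minus strand).
Cxcl1: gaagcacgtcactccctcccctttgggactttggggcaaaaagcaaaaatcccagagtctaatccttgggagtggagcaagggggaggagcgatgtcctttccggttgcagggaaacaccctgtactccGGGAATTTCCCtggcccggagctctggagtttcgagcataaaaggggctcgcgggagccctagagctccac
Cxcl2: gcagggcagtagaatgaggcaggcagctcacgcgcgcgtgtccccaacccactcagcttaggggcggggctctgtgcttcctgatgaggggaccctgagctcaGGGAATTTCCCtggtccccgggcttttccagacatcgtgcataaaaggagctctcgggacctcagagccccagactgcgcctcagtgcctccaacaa
Irf1: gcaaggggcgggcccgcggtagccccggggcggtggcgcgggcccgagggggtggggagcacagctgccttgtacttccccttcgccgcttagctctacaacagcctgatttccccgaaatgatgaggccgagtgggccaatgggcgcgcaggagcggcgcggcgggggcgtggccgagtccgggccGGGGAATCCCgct
Nfkbia: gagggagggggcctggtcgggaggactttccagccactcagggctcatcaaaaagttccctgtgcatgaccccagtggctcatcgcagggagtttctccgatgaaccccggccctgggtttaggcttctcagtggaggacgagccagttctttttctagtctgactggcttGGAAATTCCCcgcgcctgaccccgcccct
Cxcl1 and Cxcl2 share the capital letters GGGAATTTCCC, in which matches on both strands overlap by all but their outermost base. The letters GGGAATTTCC were taken from the Cxcl1 window, so the match of Cxcl1 was fixed by that choice. On either strand they occurred in 3 of the 23 genes (Cxcl1, Cxcl2 and Nfkbia) and in 0.107% of all symbols, which is a description and not a test. Among the 18 measured genes with a window, the median change of the 10 with a kappa B match and of the 8 without was 0.27 and 0.25 for FXR-K217Q in lean livers. These medians were 0.15 and 0.18 for FXR-K217R in obese livers, and 0.33 and 0.09 for obesity under FXR-WT. Ccl2 and Ccl7, which had the largest changes for FXR-K217Q and obesity, are among the 8 measured genes with no window and stand on neither side of this split. A match is a run of letters and says nothing on its own of binding in these livers.

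Each array detected 18263 to 19500 of 45281 probes, with a mean of 41.9 to 44.0 beads a probe. The number of arrays limits the precision. All 6 hepatocyte markers, among them albumin, were detected on all 11 arrays. Nr1h4, the gene of FXR, was detected on 11 of 11 arrays, with group means of 12.12 to 12.42. Whether its probe reads delivered or endogenous transcripts was not tested, so these values do not measure delivery. The probe read for the FXR target Nr0b2, which encodes the corepressor SHP, was detected on 0 of 11 arrays. Its group means were 4.49 to 4.75. How well that probe reports Nr0b2 was not tested, so neither absent SHP transcript nor inactive FXR follows from it. The array most like lean FXR-K217Q replicate 3 was lean FXR-WT replicate 2, outside its group (r = 0.988 across genes), and obese FXR-WT replicate 1 had the lowest best correlation of any array (r = 0.987). All 3 obese FXR-K217R arrays correlated best with obese FXR-WT arrays. Lean FXR-K217Q replicate 3 and obese FXR-WT replicate 1 are the arrays that stood apart. Median changes, and single changes whose sign turned without these arrays, are given with and without both.

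Detection itself separated the genes. Of the 26 measured genes, 21 were detected on all 11 arrays. Il6, the cytokine that drives the acute phase response, was detected on 1 array, lean FXR-K217Q replicate 3, with a detection p of 0.0481. The chemokine Ccl20, the endothelial selectin gene Sele, the prostaglandin synthase gene Ptgs2 and the growth factor gene Csf2 were detected on 0 of 11 arrays and were not tested. Cxcl5 was not analysed here. Nos2, the inducible nitric oxide synthase, was detected on obese FXR-K217R replicates 1 and 2 only, and Birc3 on all arrays but obese FXR-K217R replicate 3. Ccl2, Ccl7 and Cxcl2 were each detected on 10 arrays, and the array that missed them was the same one, lean FXR-WT replicate 2 (detection p of 0.116, 0.213 and 0.0577).

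**Figure D1:**
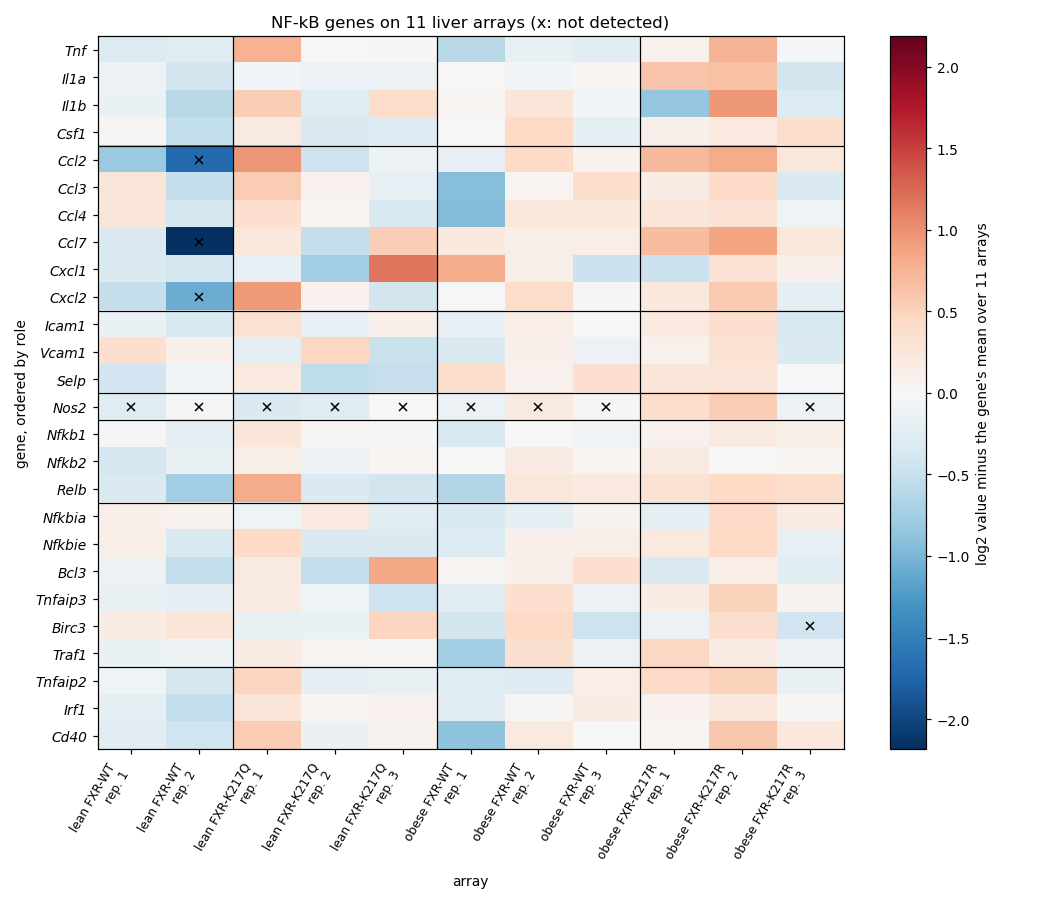
Each row is a measured NF-kB gene, ordered by role (horizontal lines separate cytokines, chemokines, adhesion molecules, the enzyme Nos2, subunits, feedback inhibitors and other targets), and each column is 1 of the 11 arrays, in 4 groups separated by vertical lines. Colour gives the log2 value minus the gene's mean over all arrays, and crosses mark values that were not detected. Ccl2, Ccl7 and Cxcl2 are darkest blue on lean FXR-WT replicate 2, where they were not detected, and most genes are red on lean FXR-K217Q replicate 1 and obese FXR-K217R replicate 2.

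The comparisons ask what the acetylation mimic does to NF-kB genes in lean livers, what the form that cannot be acetylated does in obese livers, and how obesity itself alters them. None of the 26 NF-kB genes (0 of 26) passed 5% FDR in limma for FXR-K217Q, FXR-K217R or obesity, where 0%, 0.0388% (6 genes) and 1.2% (185 genes) of all genes did. Most of their means nevertheless lay above those of FXR-WT with either mutant. With FXR-K217Q in lean livers 21 of 26 genes had a mean above that with FXR-WT, with a median change of 0.27, while 49.4% of all genes lay above 0. With FXR-K217R in obese livers 22 of 26 did, with a median of 0.24, against 48.8% of all genes. In obese against lean livers with FXR-WT 18 of 26 did, with a median of 0.21, against 49.9% of all genes. The median change of all genes was -0.0030, -0.0047 and -0.00068 in these comparisons. Nos2 was below detection on every array of both groups in the lean and obesity comparisons. Without it 21, 21 and 17 of 25 genes lay above 0, and with Nos2 at its bound the median for FXR-K217R was 0.21.

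Some single changes exceeded the spread between arrays of a group, though 0 passed the adjustment over all genes. The changes of Ccl2, at 1.38 for FXR-K217Q and 1.36 for obesity, stood against a pooled SD within groups of 0.51. Its SD was larger in both lean groups, at 0.63 with FXR-WT and 0.74 with FXR-K217Q, than in obese FXR-WT (0.31) and obese FXR-K217R (0.30). The change of Irf1 for FXR-K217Q, at 0.51, stood against a pooled 0.17, and 0.24 in lean FXR-WT. That of Nfkb2 for obesity, at 0.34, stood against a pooled 0.12, and 0.14 in lean FXR-WT. At an unadjusted limma p under 0.05 there were 4 NF-kB genes for FXR-K217Q, all higher (2.94% of all genes were higher at this level, and 7.2% passed it in either direction). There was 1 for FXR-K217R, also higher (2.1% of all genes, 4.41% in either direction), and 6 for obesity, all higher (7.24% of all genes, 13.5% in either direction). The F test over the 4 groups passed for 0 of 26 genes at 5% FDR, against 1.31% of all genes, and its smallest values were for Ccl2 (limma, adjusted p = 0.143) and Ccl7 (limma, adjusted p = 0.217). The comparison of FXR-K217Q with lean FXR-WT and that of obese with lean FXR-WT share the 2 lean FXR-WT arrays, and the comparison of FXR-K217R shares the obese FXR-WT arrays with the latter, so their signs are not independent of each other.

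**Figure D2:**
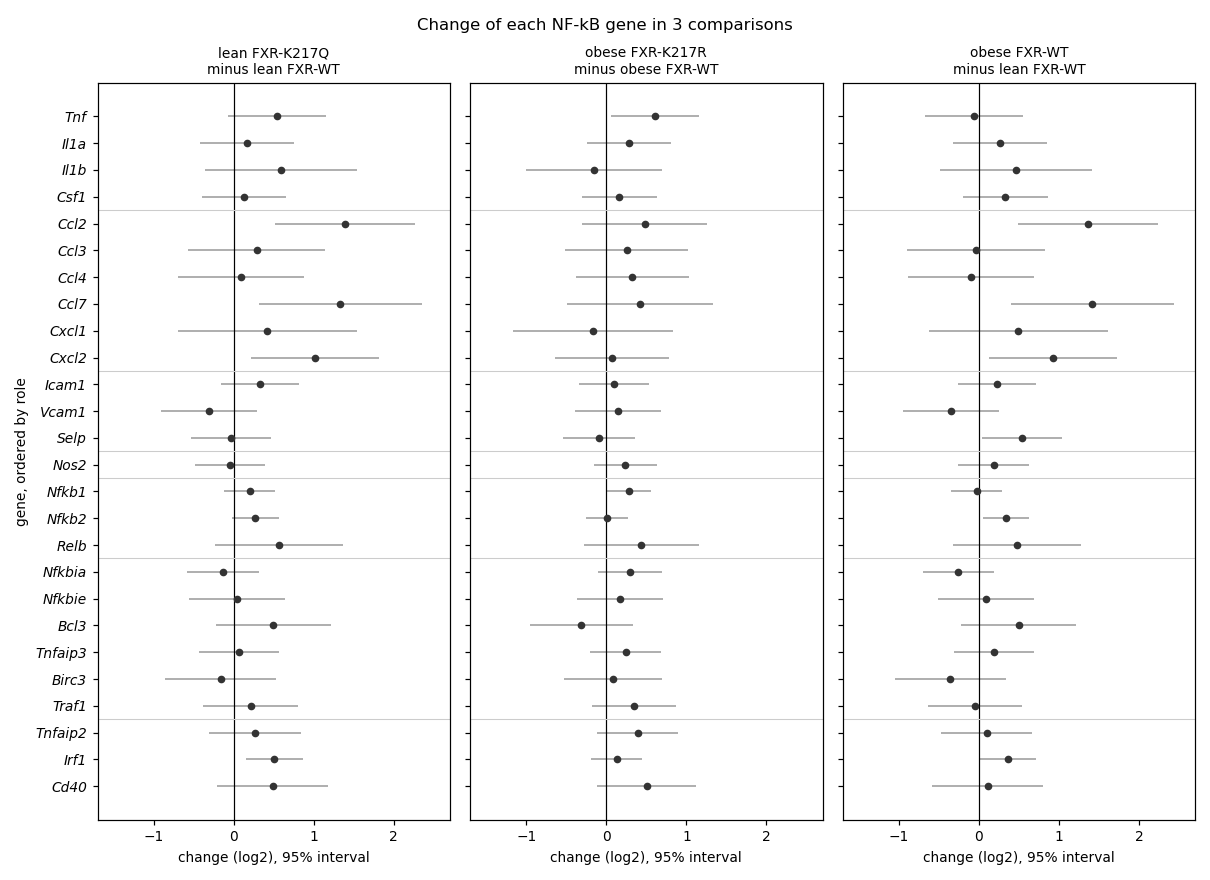
Points are the changes of the 26 measured genes in the 3 comparisons (log2 scale, x axis), and lines are 95% intervals from the limma fit. Ccl2, Ccl7 and Cxcl2 have the largest changes in the left and right panels, where both use the lean FXR-WT arrays, and the middle panel has no change above 0.61.

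Counting genes whose groups did not overlap, 7 genes were higher on all 3 FXR-K217Q arrays than on both lean FXR-WT arrays: Tnf, Ccl2, Cxcl2, Nfkb2, Traf1, Irf1 and Cd40. Of all genes 10.3% were separated in that direction. With FXR-K217R 4 genes lay above all obese FXR-WT arrays, Tnf, Ccl7, Nfkb1 and Relb, against 4.31% of all genes. Obese FXR-WT livers lay above lean FXR-WT livers for 8 genes, Il1a, Il1b, Ccl2, Ccl7, Cxcl2, Selp, Nfkb2 and Bcl3 (16.7% of all genes), and below them for Nfkbia (16.2% of all genes). Tnf was the 1 gene separated with both mutants, each against its own FXR-WT group. The share of all genes separated with both was not counted, so this does not set Tnf apart from other genes.

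The cytokines are the proteins that start and spread the response. Tnf encodes tumour necrosis factor, both an NF-kB product and an inducer of it. It measured 5.67 and 5.71 in lean FXR-WT, 6.74, 5.96 and 5.99 in lean FXR-K217Q, 5.37, 5.82 and 5.72 in obese FXR-WT and 6.07, 6.71 and 5.95 in obese FXR-K217R livers. All 6 mutant arrays thus lay above all 5 FXR-WT arrays, an order not counted over all genes, while lean and obese FXR-WT values overlapped. The change was 0.54 (SE 0.28, limma, adjusted p = 0.733) for FXR-K217Q, 0.61 (SE 0.25, limma, adjusted p = 0.993, unadjusted p = 0.032) for FXR-K217R and -0.06 (SE 0.28) for obesity. By p, Tnf had rank 429 of 15469 genes for FXR-K217R, and the adjusted p ranged from 0.751 to 1.00 over the alternative settings. The change went to 0.37 without obese FXR-K217R replicate 2, and that for FXR-K217Q to 0.29 without lean FXR-K217Q replicate 1, the highest array of each group.

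Il1b encodes interleukin-1 beta, made as a precursor mainly by macrophages and neutrophils. It measured 8.10 and 7.65 in lean FXR-WT, 8.79, 7.98 and 8.64 in lean FXR-K217Q, 8.32, 8.52 and 8.19 in obese FXR-WT and 7.41, 9.19 and 7.96 in obese FXR-K217R livers. Its lowest and its highest array were both in the obese FXR-K217R group. The change was 0.60 (SE 0.43) for FXR-K217Q, -0.15 (SE 0.38) for FXR-K217R and 0.47 (SE 0.43) for obesity, with limma adjusted p-values of 0.836, 0.996 and 0.694.

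The 7 measured Kupffer cell markers had a mean log2 value of 7.45, 9.37 and 8.12 on obese FXR-K217R replicates 1 to 3, the order in which Il1b lay. In replicate order this mean was 8.76 and 8.85 in lean FXR-WT and 8.42, 8.38 and 8.33 in lean FXR-K217Q livers. It was 9.17, 8.50 and 8.62 in obese FXR-WT livers. In each of these other groups Il1b lay in a different order. The summed level of the markers on the log2 scale ranged from 13.21 to 13.36, 12.63 to 12.86, 12.83 to 13.27 and, with FXR-K217R, 12.35 to 13.47. The Kupffer cell marker Cd5l was detected on 0 arrays and 0 of the other 7 passed 5% FDR in any comparison. The part of these cells in the Il1b values was not tested, and in whole liver RNA fewer cells of a type and less RNA per cell cannot be told apart.

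Il1a, the other interleukin-1, measured 6.92 and 6.64 in lean FXR-WT, 6.99, 6.92 and 6.91 in lean FXR-K217Q, 7.04, 6.98 and 7.09 in obese FXR-WT and 7.67, 7.68 and 6.64 in obese FXR-K217R livers. FXR-K217R replicates 1 and 2 lay above all other arrays, and replicate 3 was level with the lowest one, lean FXR-WT replicate 2. Csf1, the growth factor of macrophages, ran from 6.23 on lean FXR-WT replicate 2 to 7.21 on obese FXR-WT replicate 2, with means of 6.51 and 6.64 in lean livers with FXR-WT and FXR-K217Q and of 6.84 in obese livers with FXR-WT. Its highest group was obese FXR-K217R, at 6.88, 6.98 and 7.15, which overlapped obese FXR-WT. Changes of the 4 measured cytokines ranged from 0.13 to 0.60 for FXR-K217Q, from -0.15 to 0.61 for FXR-K217R and from -0.06 to 0.47 for obesity.

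The chemokines draw leukocytes into the tissue, and 3 of them had the largest changes of the 26 genes for FXR-K217Q and for obesity. Ccl2, also called MCP-1, attracts monocytes. It measured 5.84 and 4.95 in lean FXR-WT, the second below detection, 7.61, 6.20 and 6.54 in lean FXR-K217Q, 6.47, 7.08 and 6.73 in obese FXR-WT and 7.36, 7.45 and 6.89 in obese FXR-K217R livers. The lowest 2 of the 11 were the lean FXR-WT arrays. Its mean was 2.61-fold higher with FXR-K217Q than with FXR-WT in lean livers (change 1.38, SE 0.39, limma, adjusted p = 0.464). It was 2.57-fold higher in obese than in lean FXR-WT livers (change 1.36, SE 0.39, limma, adjusted p = 0.151), and 1.39-fold higher with FXR-K217R (change 0.48, SE 0.35, limma, adjusted p = 0.993). Over the alternative settings these changes ranged from 0.52 to 1.83 for FXR-K217Q, 0.48 to 1.80 for obesity and 0.24 to 0.65 for FXR-K217R. Without lean FXR-WT replicate 2, the undetected array, the first 2 were 0.94 and 0.92. The folds thus depend on the processing and on single arrays.

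Ccl7, or MCP-3, another monocyte attractant, measured 6.69 and 4.82 in lean FXR-WT, the second again below detection, 7.24, 6.47 and 7.54 in lean FXR-K217Q, 7.23, 7.13 and 7.14 in obese FXR-WT and 7.68, 7.86 and 7.24 in obese FXR-K217R livers. The 3 obese FXR-WT arrays lay close together, while the 2 lean ones lay farther apart than any other pair within a group. The change was 1.33 (SE 0.46, limma, adjusted p = 0.517) for FXR-K217Q, 1.42 (SE 0.46, limma, adjusted p = 0.209) for obesity and 0.43 (SE 0.41, limma, adjusted p = 0.993) for FXR-K217R. Both comparisons with lean FXR-WT rest on 1 array. The FXR-K217Q value was 0.40 when lean FXR-WT replicate 2 was left out and 2.27 when replicate 1 was. The obesity value without lean FXR-WT replicate 2 was 0.48, and without lean FXR-WT replicate 1 it was 2.35, where limma's adjusted p was 0.0368 and only the undetected array stood for the lean group. Over all alternatives this adjusted p ranged from 0.0368 to 0.825, and the other NF-kB genes passed 5% FDR in none of the alternatives run.

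Cxcl2, or MIP-2, attracts neutrophils. It measured 5.74 and 5.16 in lean FXR-WT, the second below detection, 7.19, 6.35 and 5.85 in lean FXR-K217Q, 6.26, 6.66 and 6.22 in obese FXR-WT and 6.49, 6.83 and 6.04 in obese FXR-K217R livers. Lean FXR-WT was again the low group, while the other 3 groups overlapped. The change was 1.02 (SE 0.36, limma, adjusted p = 0.536) for FXR-K217Q, 0.93 (SE 0.36, limma, adjusted p = 0.295) for obesity and 0.07 (SE 0.32, limma, adjusted p = 0.999) for FXR-K217R. Without lean FXR-K217Q replicate 1 the first of these was 0.65.

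Cxcl1, or KC, is a neutrophil attractant that hepatocytes make in quantity. It measured 10.92 and 10.87 in lean FXR-WT, 11.06, 10.48 and 12.41 in lean FXR-K217Q, 12.04, 11.36 and 10.76 in obese FXR-WT and 10.77, 11.54 and 11.35 in obese FXR-K217R livers. Its 2 highest arrays were lean FXR-K217Q replicate 3 and obese FXR-WT replicate 1, the arrays that stood apart, and without them the change with FXR-K217Q went from 0.42 to -0.13 and that with FXR-K217R from -0.17 to 0.16. Ccl3 and Ccl4, the macrophage inflammatory proteins, had their lowest array in obese FXR-WT replicate 1 (7.49 and 9.75, against 8.46 or more and 10.92 on replicates 2 and 3). Their changes were 0.29 and 0.09 for FXR-K217Q, 0.25 and 0.33 for FXR-K217R and -0.03 and -0.10 for obesity, and without the 2 arrays those with FXR-K217R were -0.13 and -0.07. Over the 6 chemokines the median change was 0.72 for FXR-K217Q, 0.29 for FXR-K217R and 0.71 for obesity, and 0 of 6 passed in each.

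**Figure D3:**
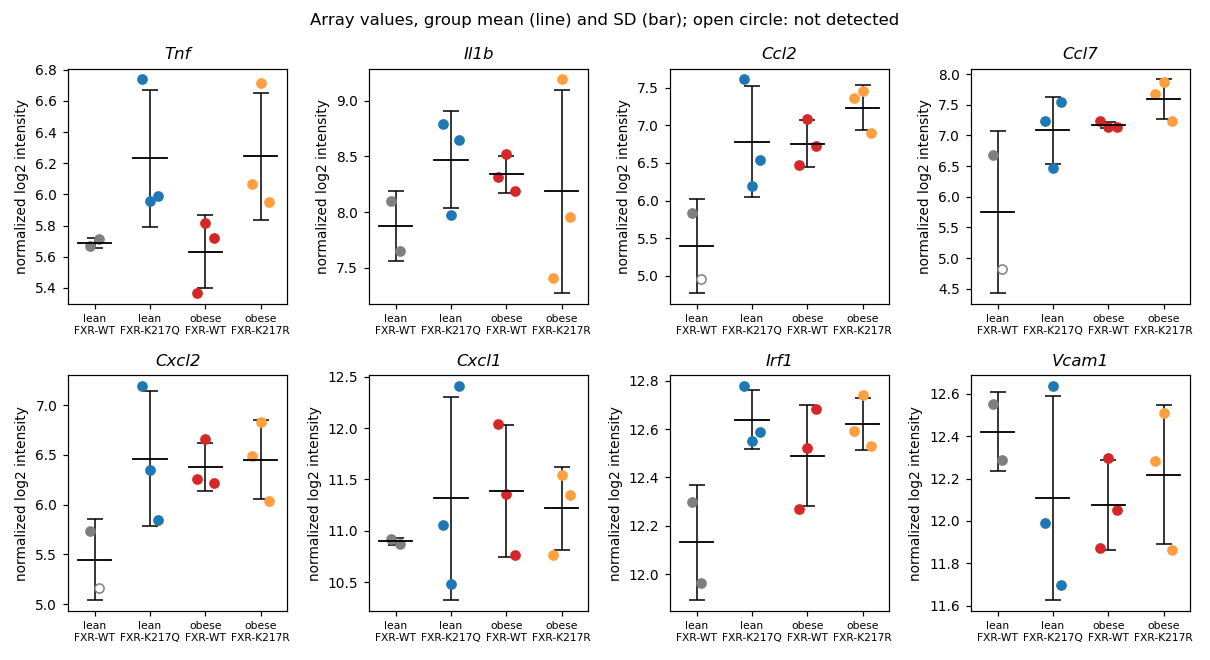
Array values of 8 NF-kB genes (y axis, normalized log2 intensity, with a scale of its own in each panel) in the 4 groups (x axis), with the group mean as a line, the SD as a bar and open circles where the gene was not detected. In the panels of Ccl2, Ccl7 and Cxcl2 lean FXR-WT has the lowest mean and 1 undetected array, and in the panel of Tnf both mutant groups lie above both FXR-WT groups.

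Markers of the cells that these chemokines attract had values in a like order in part. The 7 measured markers of monocytes and recruited macrophages had a mean of 8.80 to 9.33 on the lean FXR-WT arrays, 9.16 to 9.34 with FXR-K217Q, 9.40 to 9.83 in obese FXR-WT and 9.58 to 10.21 with FXR-K217R, and the lowest array was lean FXR-WT replicate 2, as for Ccl2 and Ccl7. Their summed level on the log2 scale was 13.11 to 13.42, 13.42 to 13.47, 13.60 to 14.01 and 13.79 to 14.45 in the same order. Of the list of 10, Ccr2, the receptor of Ccl2, and Itgam were detected on 0 arrays, and 0 of 7 passed 5% FDR. Neutrophil markers moved otherwise. All 10 measured had lower means with FXR-K217R (48.8% of all genes lay above 0), and 6 of them passed 5% FDR. These were all of the 6 genes past 5% FDR in that comparison, among them the granule protein gene Ltf (change -3.25, limma, adjusted p = 0.00162) and the calprotectin gene S100a9 (change -2.56, limma, adjusted p = 0.00253).

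In obese against lean FXR-WT livers all 10 measured neutrophil markers had higher means (49.9% of all genes did). Of these, 4 passed 5% FDR (1.2% of all genes), among them Ngp, a granule protein, which rose by 2.37 (limma, adjusted p = 0.00463). With FXR-K217Q 9 of the 10 had means below lean FXR-WT, with a median of -0.64; 0 passed 5% FDR and 5 passed an unadjusted limma p under 0.05, all lower (7.2% of all genes in either direction). The mean of the 10 was 7.37 to 7.38 in lean FXR-WT, 6.23 to 6.71 in lean FXR-K217Q, 8.67 to 9.08 in obese FXR-WT and 6.31 to 6.70 in obese FXR-K217R livers. Their summed level on the log2 scale was 11.99 to 12.12 in lean FXR-WT, 11.44 to 12.16 in lean FXR-K217Q, 13.39 to 13.82 in obese FXR-WT and 10.71 to 11.50 in obese FXR-K217R livers, and Cxcr2, the receptor of Cxcl1 and Cxcl2, was detected on 0 of 11 arrays. Obese FXR-K217R livers therefore had neutrophil marker levels below those of obese FXR-WT, with Cxcl2 values of 6.04 to 6.83 that overlapped them. Any part of these cells in the values of NF-kB genes was not tested.

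Adhesion molecules on endothelium let leukocytes stop and cross the vessel wall. Icam1, the ligand of leukocyte integrins, measured 10.88 and 10.71 in lean FXR-WT, 11.37, 10.86 and 11.15 in lean FXR-K217Q, 10.86, 11.17 and 11.02 in obese FXR-WT and 11.25, 11.41 and 10.68 in obese FXR-K217R livers. All groups overlapped, and its changes were 0.33, 0.10 and 0.22 for FXR-K217Q, FXR-K217R and obesity. Vcam1, the ligand of the integrin VLA-4, went the other way in the comparisons with lean FXR-WT: it measured 12.55 and 12.29 there, 11.99, 12.64 and 11.70 with FXR-K217Q, 11.87, 12.30 and 12.05 in obese FXR-WT and 12.28, 12.51 and 11.86 with FXR-K217R. Its changes were -0.31 (SE 0.27), 0.14 (SE 0.24) and -0.35 (SE 0.27), and its 2 other probes read 0.37 and 0.61 for FXR-K217Q, though these were detected on 6 and 3 of 11 arrays.

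Selp encodes P-selectin, which endothelial cells and platelets store and expose. It measured 5.83 and 6.17 in lean FXR-WT, 6.46, 5.70 and 5.75 in lean FXR-K217Q, 6.64, 6.35 and 6.62 in obese FXR-WT and 6.52, 6.53 and 6.28 in obese FXR-K217R livers. All 6 obese arrays lay above both lean FXR-WT arrays, and its obesity change was 0.54 (SE 0.23, limma, adjusted p = 0.336, unadjusted p = 0.0385), while its changes were -0.03 for FXR-K217Q and -0.10 for FXR-K217R. Nos2 was too dim for a fold in the lean groups, and in obese livers its mean was at least 1.03-fold higher with FXR-K217R (limma, adjusted p = 0.993).

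The NF-kB subunits are themselves NF-kB targets. Relb, the partner of p52 in the alternative pathway, measured 6.83 and 6.39 in lean FXR-WT, 7.96, 6.83 and 6.74 in lean FXR-K217Q, 6.51, 7.40 and 7.36 in obese FXR-WT and 7.47, 7.59 and 7.52 in obese FXR-K217R livers. The 3 FXR-K217R arrays lay close together and above all obese FXR-WT arrays, the lowest of which was replicate 1, and the change was 0.44 (SE 0.32, limma, adjusted p = 0.993). Without obese FXR-WT replicate 1 this change was 0.15. Nfkb2, the precursor of p52, measured 6.08 and 6.28 in lean FXR-WT, 6.56, 6.30 and 6.48 in lean FXR-K217Q, 6.43, 6.62 and 6.49 in obese FXR-WT and 6.64, 6.45 and 6.49 in obese FXR-K217R livers. Lean FXR-WT lay below the other 3 groups, which did not differ beyond their spread: the change was 0.27 (SE 0.13, limma, adjusted p = 0.729) for FXR-K217Q, 0.34 (SE 0.13, limma, adjusted p = 0.297) for obesity and 0.01 (SE 0.12) for FXR-K217R.

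Nfkb1, the precursor of p50, measured 9.35 and 9.18 in lean FXR-WT, 9.65, 9.41 and 9.35 in lean FXR-K217Q, 9.05, 9.38 and 9.30 in obese FXR-WT and 9.47, 9.58 and 9.51 in obese FXR-K217R livers. All FXR-K217R arrays lay above all obese FXR-WT arrays, with a change of 0.28 (SE 0.13, limma, adjusted p = 0.993, unadjusted p = 0.0517). The other probe of Nfkb1 gave -0.44 in the same comparison and -0.42 for FXR-K217Q, so the direction for Nfkb1 depends on the probe.

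Feedback inhibitors end the NF-kB response. Nfkbia encodes I-kappa-B alpha, the inhibitor resynthesised first, and measured 10.32 and 10.28 in lean FXR-WT, 10.11, 10.41 and 9.96 in lean FXR-K217Q, 9.87, 9.98 and 10.28 in obese FXR-WT and 10.01, 10.62 and 10.38 in obese FXR-K217R livers. It was the 1 NF-kB gene for which all obese FXR-WT arrays lay below both lean ones, by 0.26 in the mean (SE 0.20, limma, adjusted p = 0.634), and the closest values were both 10.28 after rounding. Its change was -0.14 for FXR-K217Q and 0.29 for FXR-K217R. Tnfaip3, or A20, which edits ubiquitin chains upstream of NF-kB, had means of 8.05 and 8.11 in lean livers with FXR-WT and FXR-K217Q and of 8.24 and 8.48 in obese livers with FXR-WT and FXR-K217R, with changes of 0.07, 0.24 and 0.19 for FXR-K217Q, FXR-K217R and obesity.

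Bcl3, an I-kappa-B family member of the nucleus that binds p50 and p52, measured 8.63 and 8.21 in lean FXR-WT, 8.94, 8.22 and 9.59 in lean FXR-K217Q, 8.79, 8.85 and 9.12 in obese FXR-WT and 8.42, 8.89 and 8.52 in obese FXR-K217R livers. Its highest array was lean FXR-K217Q replicate 3, as for Cxcl1, and its changes of 0.50, -0.31 and 0.50 for FXR-K217Q, FXR-K217R and obesity made it 1 of the 4 genes with a mean below FXR-WT for FXR-K217R, beside Il1b, Cxcl1 and Selp. Without lean FXR-K217Q replicate 3 the FXR-K217Q change of Bcl3 was 0.16. Nfkbie, I-kappa-B epsilon, had changes of 0.04, 0.17 and 0.09. Birc3 (cIAP2) and Traf1, which act at the tumour necrosis factor receptor, had changes of -0.16 and 0.21 for FXR-K217Q, 0.08 and 0.35 for FXR-K217R and -0.36 and -0.05 for obesity. The FXR-K217R change of Traf1 was 0.06 without obese FXR-WT replicate 1. The median over the 6 genes grouped here as feedback inhibitors was 0.05, 0.21 and 0.02 in the 3 comparisons. The group includes Bcl3, Birc3 and Traf1, and whether these inhibit NF-kB in these livers was not tested.

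Irf1, a transcription factor that couples NF-kB to interferon genes, had the smallest p of the remaining targets. It measured 12.30 and 11.96 in lean FXR-WT, 12.78, 12.55 and 12.59 in lean FXR-K217Q, 12.27, 12.52 and 12.68 in obese FXR-WT and 12.59, 12.74 and 12.53 in obese FXR-K217R livers. All 6 mutant arrays lay above both lean FXR-WT arrays, and obese FXR-WT replicate 1 lay between these. The change was 0.51 (SE 0.16, limma, adjusted p = 0.494, unadjusted p = 0.00952) for FXR-K217Q, 0.36 (SE 0.16, limma, adjusted p = 0.364) for obesity and 0.13 (SE 0.14) for FXR-K217R. Without lean FXR-WT replicate 2 the obesity change was 0.19. For obesity 3 other probes of Irf1 had the opposite sign, between -0.22 and -0.06.

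Cd40, a receptor of the tumour necrosis factor family on macrophages, B cells and endothelium, measured 7.50 and 7.29 in lean FXR-WT, 8.27, 7.58 and 7.80 in lean FXR-K217Q, 6.84, 7.95 and 7.73 in obese FXR-WT and 7.77, 8.31 and 7.95 in obese FXR-K217R livers. Its change was 0.49 (SE 0.31) for FXR-K217Q and 0.50 (SE 0.28) for FXR-K217R, with limma adjusted p-values of 0.806 and 0.993, and 0.11 for obesity. The FXR-K217R change was 0.17 without obese FXR-WT replicate 1. Tnfaip2, a target induced by tumour necrosis factor in endothelium, had changes of 0.27, 0.39 and 0.10, and its highest arrays were obese FXR-K217R replicate 2 (9.98) and lean FXR-K217Q replicate 1 (9.95).

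The change with FXR-K217R in obese livers was then set against that with FXR-K217Q in lean livers. This difference was above 0 for 14 of 26 genes (50.8% of all genes) with a median of 0.02, and 0 genes passed at 5% FDR or at an unadjusted limma p under 0.05 (4.71% of all genes did at the latter). The largest differences were below 0, for Cxcl2 (-0.94, 95% interval -2.01 to 0.13), Ccl2 (-0.91, -2.08 to 0.27) and Ccl7 (-0.90, -2.27 to 0.46). Intervals this wide include both 0 and large differences, so the mutants are not shown to act alike on these genes. The 2 mutations were each measured in 1 body state, so mutation and body state cannot be told apart in it.

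Group means were highest in obese FXR-K217R livers for 16 of 26 genes (26.9% of all genes) and lowest there for 0 (27.4%). These 16 include Nos2, which was detected in no other group, so its place there was set by the detection filter. Its highest array was obese FXR-K217R replicate 2, and it is in the counts for that array too. Group means were lowest in lean FXR-WT livers for 16 genes (30.4% of all genes) and in obese FXR-WT livers for 8 (19.6%). Single arrays held much of this order. Lean FXR-K217Q replicate 1 and obese FXR-K217R replicate 2 were each the highest of all 11 arrays for 9 genes (7.88% and 8.18% of all genes), and obese FXR-K217R replicate 2 was among the 3 highest for 24 of 26 (25.3% of all genes). Lean FXR-WT replicate 2 was the lowest array for 10 genes (10.6% of all genes) and obese FXR-WT replicate 1 for 7 (9.93%).

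Within groups the genes also moved together. Obese FXR-K217R replicate 2 was the highest of its group for 23 of 26 genes, where 32.2% of all genes had it highest, and replicate 3 was the lowest for 17 (33.3% of all genes). Lean FXR-K217Q replicate 1 was the highest of its group for 19 genes (33.2% of all genes), and lean FXR-WT replicate 1 lay above replicate 2 for 20 genes (50.9% of all genes). The median SD within groups was 0.339 over the 26 genes and 0.213 over all genes, at median levels of 7.53 and 7.69. These counts describe the arrays and were not tested, and the genes share their arrays.

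**Figure D4:**
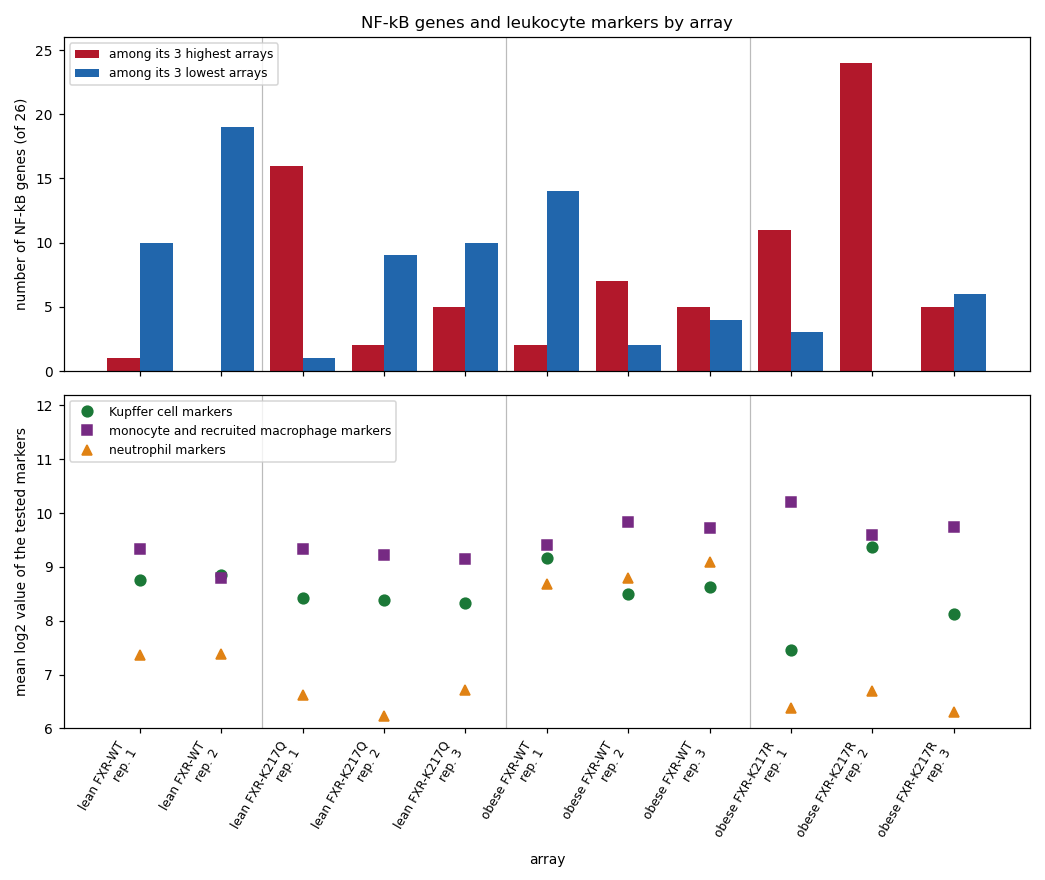
The upper panel gives, for each of the 11 arrays (x axis), the number of the 26 NF-kB genes (y axis) for which it is among the 3 highest (red bars) or the 3 lowest (blue bars) of the 11. The lower panel gives the mean log2 value (y axis, starting at 6) of the measured Kupffer cell, monocyte and neutrophil markers on the same arrays; obese FXR-K217R replicate 2, with 24 genes among the highest, has the highest Kupffer cell marker mean (9.37), but replicate 1 of that group, with 11, has the lowest (7.45) and lean FXR-K217Q replicate 1, with 16, lies at 8.42. Lean FXR-WT replicate 2, with 19 among the lowest, has the lowest monocyte marker mean (8.80).

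The median changes depend on such arrays. For FXR-K217Q the median of 0.27 was 0.15 when lean FXR-K217Q replicate 1 was left out and 0.41 when lean FXR-WT replicate 1 was. For FXR-K217R the median of 0.24 was 0.09 without obese FXR-WT replicate 1, where 19 of 26 genes lay above 0. It was 0.11 without obese FXR-K217R replicate 2, where 17 of 25 genes lay above 0, since Nos2 then failed the detection filter. For obesity the median of 0.21 was 0.13 when lean FXR-WT replicate 2 was left out and 0.32 when replicate 1 of that group was. Without both arrays that stood apart 21, 19 and 23 of 26 genes lay above 0, with medians of 0.26, 0.09 and 0.30, and 0 passed 5% FDR.

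Other genes of the pathway gave no call at 5% FDR either. Of 14 measured receptors and leukocyte ligands of the NF-kB products, 0 passed in any comparison (limma, with 2, 1 and 0 at an unadjusted p under 0.05 for FXR-K217Q, FXR-K217R and obesity). In this and the next lists these counts stand against 7.2%, 4.41% and 13.5% of all genes at that level in either direction. The smallest p-values were those of Tnfrsf1b, the second tumour necrosis factor receptor, for FXR-K217Q (-0.35, SE 0.15), Itgb2, the beta chain of the integrins that bind Icam1, for FXR-K217R (0.54, SE 0.15, limma, adjusted p = 0.993) and Il6ra, the interleukin-6 receptor, for obesity (-0.70, SE 0.35). Of 20 measured parts of the signalling chain from Toll-like and cytokine receptors to the kinase IKK, 0 passed (1, 1 and 2 unadjusted), and the median change was -0.04, 0.0017 and -0.09. Its smallest p-values were those of the kinase gene Ripk1 for FXR-K217Q (-0.30, SE 0.13), the adaptor Tradd for FXR-K217R (0.30, SE 0.13) and Irak2, a kinase of the interleukin-1 receptor complex, for obesity (0.46, SE 0.12, limma, adjusted p = 0.127).

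Of 15 other brakes on NF-kB and its products, 0 passed (1, 1 and 0 unadjusted, medians 0.14, 0.05 and 0.08). Il10, an anti-inflammatory cytokine, was detected on both lean FXR-WT arrays, on 2 of 3 obese FXR-K217R arrays and on 0 arrays of the other groups. Its mean was at least 1.08-fold higher in lean FXR-WT than in lean FXR-K217Q livers (5.40 against 4.77, limma, adjusted p = 0.506) and at least 1.15-fold higher with FXR-K217R than with FXR-WT in obese livers (5.40 against 4.96, limma, adjusted p = 0.993). Tnip1, a partner of A20, had the smallest p for obesity (0.41, SE 0.19, limma, adjusted p = 0.401).

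Of 19 other known NF-kB targets, 0 passed (2, 4 and 4 unadjusted), with medians of 0.27, 0.11 and 0.25, close to those of the 26 genes except for FXR-K217R. Junb, a subunit of the factor AP-1, was 0.87 (SE 0.25, limma, adjusted p = 0.464) above FXR-WT with FXR-K217Q. Mmp9, a protease that neutrophils store and that is also on the neutrophil marker list, had a change of -1.28 with FXR-K217R (limma, adjusted p = 0.0602) and of 0.85 in obese against lean FXR-WT livers (limma, adjusted p = 0.083).

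Of the markers of other liver cells, 0 passed 5% FDR in limma. The 7 measured T and NK cell markers were all higher with FXR-K217R in obese livers (48.8% of all genes were), with a median of 0.55. At an unadjusted p under 0.05 there were 3 (4.41% of all genes in either direction). Their mean was 6.83 to 7.70 in obese FXR-WT and 7.54 to 8.05 with FXR-K217R, their summed log2 level was 10.04 to 11.06 and 10.77 to 11.38, and Cd4 and Cd8a were detected on 0 arrays. The 7 measured endothelial markers all had lower means with FXR-K217Q than with FXR-WT in lean livers (49.4% of all genes were higher), with a median of -0.34. At an unadjusted p under 0.05 there was 1 (7.2% of all genes in either direction). Their mean was 9.33 to 9.59 with FXR-K217Q against 9.74 on both lean FXR-WT arrays, their summed log2 level 12.83 to 12.99 against 13.20 to 13.21, and Kdr was detected on 0 arrays. Of 6 stellate cell markers, 5 were higher in obese than in lean FXR-WT livers (49.9% of all genes were), with a median of 0.50. Of these 6, 1 had an unadjusted p under 0.05 (13.5% of all genes in either direction). The part of these cells in the values of NF-kB genes, those of Vcam1, Icam1 and Selp included, was not tested.

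The choice of probe matters for single genes. Of the 26 genes, 12 had 19 further probes past the detection filter, which gave 57 values over the 3 comparisons, and 12 of these had the opposite sign to the brightest probe. The opposite signs numbered 3 for FXR-K217Q, 3 for FXR-K217R and 6 for obesity, and they were in Nfkb1, Vcam1, Cxcl2, Nfkbia, Traf1, Irf1 and Cd40. The other probe of Ccl7 gave 1.27, 0.22 and 1.38 for FXR-K217Q, FXR-K217R and obesity, and that of Tnf 0.40, 0.41 and -0.02. Ccl2 had no other probe past the filter.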

How the data were processed

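Liver RNA was measured on 11 Illumina arrays, from cRNA that, per the labels' protocols, an Illumina TotalPrep kit had labelled with biotin. Per the file headers, the deposited table gives for each probe and array a mean bead intensity, the standard error over beads as a signal, the number of beads as a count, and a detection p-value. The authors also deposited normalized values on a log2 scale, for which the submitters' processing notes name limma 3.12.3 without its settings. Their largest difference from the values used below is 0.0271, and both deposited copies are identical (largest difference 0). Which program summarised the beads is not given in these sources.

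Background correction and quantile normalization of the intensities used neqc (limma 3.58.1, R 4.3.3), which estimated the background from the detection p-values, with an offset of 16. Of 45281 probes, 21485 with a detection p under 0.05 on at least 2 arrays were kept, and the brightest per symbol gave 15469 genes (4256 had several). The file's symbols were used as they stand. One limma model (lmFit, eBayes) with a mean per group was fitted to all 11 arrays, two-sided, with Benjamini-Hochberg adjustment within each contrast. Where no array of 1 group detected a gene, its fold is a bound: the other group's mean against, per array, the higher of the dimmest detected value and the gene's own. Summed marker levels are log2 of the summed linear values.

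All 32 listed genes are accounted for. Of each other list, the genes past 5% FDR, or else the one with the smallest p per comparison, were named. Members and lists were chosen with earlier results of these data known. Replicate numbers do not pair the arrays: deviations of same-numbered arrays correlated between -0.107 and 0.234. The procedure was tested on simulated data. Alternatives changed background, offset, scaling, filter, probe choice, variance trend, block, groups fitted and arrays. Chips could not be used as a block, since the headers name none.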

Additional observations from a re-analysis of the deposited data

How the results depend on the processing

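All 11 alternatives that leave out 1 array and 11 others were run. No NF-kB gene passed 5% FDR under any of them but Ccl7, for obesity (2.35, limma, adjusted p = 0.0368) and in the F test, without lean FXR-WT replicate 1, where the lone lean FXR-WT array is assumed to vary like the other groups. Leaving out 1 array gave 0 to 1 NF-kB genes in those tests. Of the 78 changes of a gene in a comparison, 50 kept their sign under all these alternatives, and 68 moved by over 1.5 times when 1 array was left out. Readings of single other probes are not among the alternatives, and some turned the sign of changes counted in the 50. With no detection filter 31 genes were tested, of which 24, 27 and 19 lay above 0 for FXR-K217Q, FXR-K217R and obesity. The members' medians stayed above 0, at 0.15 to 0.41, 0.09 to 0.32 and 0.13 to 0.32 when 1 array was left out. Median scaling shifted the median of all genes by -0.16 for FXR-K217Q, and 17 of 26 genes then lay above 0 with a median of 0.11.

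Counts over all genes at 5% FDR moved more. For FXR-K217R the 6 genes became 2 with detection on every array or with only its 2 groups fitted, and 3 to 10 when 1 array was left out. For obesity the 185 genes became 110 with only its 2 groups fitted, 467 without the arrays that stood apart, and 31 to 285 when 1 array was left out, the fewest without lean FXR-WT replicate 2 and the most without lean FXR-K217Q replicate 3. The F test's 202 genes became 403 without the arrays that stood apart and 74 to 290 when 1 array was left out. For FXR-K217Q the 0 genes became 2 without those arrays and 0 to 1 when 1 array was left out. For the difference between the changes of FXR-K217R and FXR-K217Q they became 1 with an offset of 50 and 1 with a mean-variance trend. The cause was not tested.

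With the replicate number as a block, 3 genes were past 5% FDR for FXR-K217R, 102 for obesity and 93 in the F test, and 0 NF-kB genes. The change of Selp for FXR-K217Q became 0.019, and those of Tnf and Traf1 for obesity 0.018 and 0.00081. The labels name no pairing by number, so the block is given for completeness.

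The sign of some changes turned under other settings. Median scaling gave -0.0758, -0.0325, -0.119 and -0.0835 for Ccl4, Csf1, Nfkbie and Tnfaip3 with FXR-K217Q, and -0.0031 for Nfkb2 with FXR-K217R. The mean over a gene's probes gave -0.11 for Nfkb1 and 0.22 for Vcam1 with FXR-K217Q, -0.0298 for Cxcl2 and -0.0821 for Nfkb1 with FXR-K217R, and 0.0251 for Nfkb1 and 0.11 for Traf1 in obesity. Single other probes gave 0.37 and 0.61 for Vcam1 and -0.42 for Nfkb1 with FXR-K217Q, -0.13 for Cxcl2, -0.0506 for Nfkbia and -0.44 for Nfkb1 with FXR-K217R, and 0.0776 for Nfkb1, 0.26 for Traf1, -0.22, -0.0624 and -0.13 for Irf1 and -0.18 for Cd40 in obesity. Without the arrays that stood apart, chosen after seeing the data, the values were -0.13 for Cxcl1 and 0.081 for Selp with FXR-K217Q. They were -0.0515 for Birc3, -0.13 for Ccl3, -0.0659 for Ccl4, 0.16 for Cxcl1 and -0.0283 for Nfkb2 with FXR-K217R, and 0.35 for Ccl3, 0.29 for Ccl4, 0.0696 for Nfkb1, 0.0772 for Tnf and 0.24 for Traf1 in obesity.

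When 1 array was left out, the sign turned for 25 changes. With FXR-K217Q the ranges were -0.10 to 0.68 for Ccl3, -0.24 to 0.41 for Ccl4, -0.13 to 0.84 for Cxcl1, -0.28 to 0.14 for Selp, -0.16 to 0.0695 for Nos2, -0.21 to 0.27 for Nfkbie, -0.0883 to 0.23 for Tnfaip3 and -0.15 to 0.41 for Csf1. With FXR-K217R they were -0.66 to 0.23 for Il1b, -0.13 to 0.53 for Ccl3, -0.0657 to 0.52 for Ccl4, -0.48 to 0.16 for Cxcl1, -0.12 to 0.28 for Cxcl2, -0.0484 to 0.31 for Icam1, -0.00027 to 0.32 for Vcam1, -0.0443 to 0.0663 for Nfkb2 and -0.13 to 0.38 for Birc3. In obesity they were -0.15 to 0.0768 for Tnf, -0.42 to 0.36 for Ccl3, -0.43 to 0.29 for Ccl4, -0.14 to 0.32 for Nfkbie, -0.11 to 0.0701 for Nfkb1, -0.0444 to 0.23 for Tnfaip2, -0.31 to 0.24 for Traf1 and -0.11 to 0.44 for Cd40.

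Signal over background limits Ccl2, Ccl7, Cxcl2, Nos2 and Birc3, each undetected on at least 1 array, and the chip as a block was not run.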
